A study of Mus musculus with 16 samples.

Results

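The genes described here are 34 markers of the colon epithelium, the cell sheet that lines the lumen, measured by bulk RNA-seq in preparations of the outer gut wall. The LMMP (longitudinal muscle and myenteric plexus, the outer muscle sheet with the nerve network on its inner face) was microdissected from the colon of Ednrb -/- mice, the HSCR group, and of WT littermates (Ednrb +/+). The 34 genes were taken by symbol from the deposited count table, in which all 34 were found once among 56748 genes, and each is annotated as protein coding. They comprise 10 structural and junction genes (Epcam, Krt8, Krt18, Krt19, Lgals4, Vil1, Cldn3, Cldn4, Cldn7 and Tspan8), 4 transcription factor genes (Cdx1, Cdx2, Elf3 and Hnf4a) and 7 goblet cell genes (Muc2, Tff3, Agr2, Fcgbp, Clca1, Spink4 and Zg16). A further 9 mark absorptive cells (Krt20, Car1, Car4, Slc26a3, Aqp8, Guca2a, Fabp2, Phgr1 and Slc9a3), Lgr5 and Olfm4 mark stem cells, Pyy endocrine cells, and Reg3g is an antimicrobial gene.

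There were 16 libraries in 4 groups of 4, namely WT proximal colon, HSCR proximal colon, WT distal colon and HSCR distal colon. The HSCR mice carry the Ednrb tm1Ywa allele in the homozygous state, which disrupts the endothelin receptor type B gene and leaves the distal colon without ganglia. All mice were on a hybrid C57BL6/J-129Sv background and a few weeks old, no agent was given, and the proximal colon taken from HSCR mice was the segment with ganglia. Segments are given here as the titles state them, since the tissue entry of all 16 labels names the proximal colon. The labels do not say which libraries came from the same mouse, so p-values measure the spread between these libraries only.

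Colon epithelium renews itself from stem cells at the base of crypts, whose daughters become absorptive colonocytes, mucus-secreting goblet cells or hormone-releasing endocrine cells. Colonocytes recover salt and water and turn over bicarbonate, goblet cells build the mucus gel, and the transcription factors Cdx1, Cdx2 and Hnf4a hold the intestinal program. Epcam, an adhesion molecule on every epithelial cell and absent from muscle and neurons, is the reference here for how much epithelium a library holds. The muscle preparation is not meant to contain any of it, so the level of these genes in a library is read here first as a measure of carried-over mucosa. In such bulk samples fewer cells of a type and less RNA per cell cannot be told apart. A ratio of a gene to Epcam within a library is independent of how much mucosa was carried over as long as both transcripts come from epithelium.

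Totals ranged from 21384372 to 45831881 counts per library, of which 4.32% to 49.8% were mitochondrial. Smooth muscle genes (Myh11, Actg2, Des, Acta2, Cnn1 and Tagln, summed) were abundant in all, at 4451 to 92878 CPM (counts relative to library size, scaled by the TMM method over the 16 libraries), with the lowest sum in HSCR proximal library 2. Ednrb, the targeted gene, was at 67.7, 33.9, 64.2 and 53.0 CPM in WT proximal libraries 1 to 4, 7.85, 12.6, 36.3 and 35.8 in HSCR proximal, 12.2, 16.1, 28.3 and 40.2 in WT distal and 97.0, 5.55, 5.83 and 9.57 in HSCR distal libraries. The library labelled HSCR distal 1 thus had the highest Ednrb level of all 16, against its label, and a gene-level count does not show whether the disrupted part was transcribed.

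Hoxd13, a homeobox gene of the hind end of the body, was at 0.904, 15.3, 19.7 and 23.9 CPM in WT proximal and 146, 157, 112 and 201 in WT distal libraries. It was at 125, 2.49, 0.643 and 1.18 in HSCR proximal and 0.629, 115, 209.7 and 14.1 in HSCR distal libraries. The library labelled HSCR proximal 1 was therefore at the level of the WT distal libraries, the library labelled HSCR distal 1 was below every WT proximal library, and HSCR distal library 4 lay among the WT proximal ones. Hoxb13, another homeobox gene of the hind end, was at 37.0 CPM in HSCR proximal library 2 and at 1.27 or less in the other 7 proximal libraries. Summed enteric neuron genes were at 36.8, 78.1, 646 and 597 CPM in HSCR proximal and 548, 51.1, 18.8 and 7.15 in HSCR distal libraries. The 2 libraries numbered 1 thus stood with the other segment here too, whereas HSCR proximal library 2 had few neuron counts beside a low Hoxd13 level, and HSCR distal library 4 had the fewest of the 8 beside a Hoxd13 level among those of WT proximal libraries. Labels were kept as given, and values without the 2 libraries numbered 1 of HSCR mice are stated beside several of the results.

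The amount of epithelium varied widely within each of the 4 groups. The 34 genes took 0.30, 0.0185, 0.00578 and 0.00533% of all counts in WT proximal libraries 1 to 4 and 0.112, 3.07, 0.561 and 0.0261% in HSCR proximal libraries. They took 0.329, 0.031, 0.0964 and 0.0228% in WT distal and 0.0563, 0.353, 0.892 and 0.0185% in HSCR distal libraries. The highest share, in HSCR proximal library 2, was 575 times the lowest, in WT proximal library 4, and the 4 groups overlapped. Group means were 0.0824% ± 0.145 in WT proximal, 0.941% ± 1.44 in HSCR proximal, 0.12% ± 0.143 in WT distal and 0.33% ± 0.404 in HSCR distal colon (SD, n = 4 each).

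On the log2 scale the share was higher in HSCR than in WT by 3.71 in the proximal colon (p = 0.114) and by 0.97 in the distal colon (p = 0.571; exact two-sided permutation tests, 4 against 4 libraries). Between segments the distal minus proximal difference was 1.76 in WT (p = 0.257) and -0.99 in HSCR mice (p = 0.60; the same exact test). None of the 4 differences exceeded the spread between libraries, and 4 against 4 libraries could have given a p as low as 0.0286. Without the libraries labelled HSCR 1, the proximal difference between genotypes was 4.13, the distal one 1.39 and the difference between segments in HSCR mice -0.98. The last of these turned to 0.19 without HSCR proximal library 2 alone, and to 0.66 when HSCR distal library 4 was left out beside the libraries labelled HSCR 1. Within the libraries numbered 1 and 2 of each group, whose names differ in form from those numbered 3 and 4, the proximal genotype difference was 2.97, and within those numbered 3 and 4 it was 4.45. The corresponding distal values were 0.48 and 1.45. Names of WT proximal libraries 3 and 4 and HSCR proximal library 4 begin with CM, and those of the other libraries numbered 3 and 4 with LC. The proximal value of 4.45 thus does not hold the form of name fixed.

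**Figure D1:**
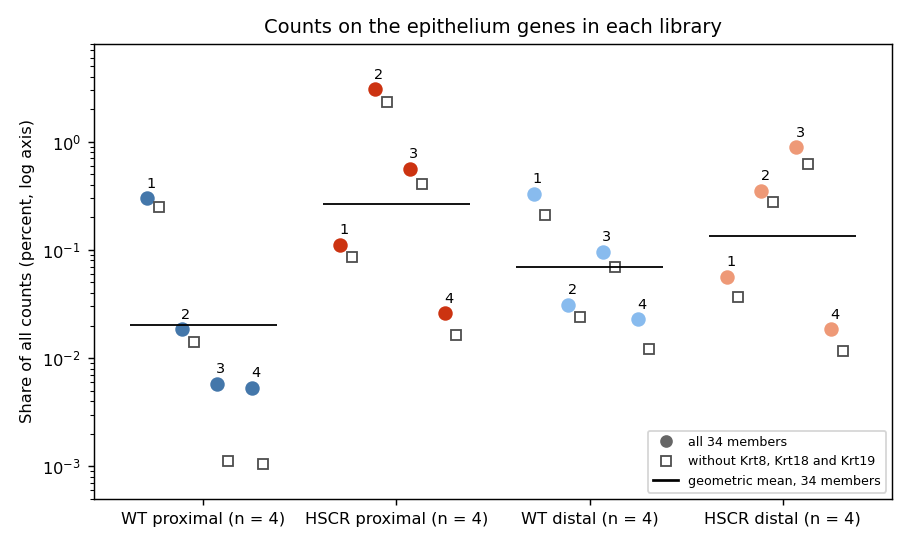
Share of all counts (percent, log axis) taken by the 34 genes in each of the 16 libraries, by group; filled points are all 34 genes, numbered by library, open squares leave out Krt8, Krt18 and Krt19, and black lines are geometric means of 4 libraries. HSCR proximal library 2 stands highest at 3.07%, and in WT proximal libraries 3 and 4 most of the share is lost when the 3 keratins are left out.

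Epcam itself (ENSMUSG00000045394, chromosome 17, 87943407 to 87958557 of mm39) had 1854, 385, 26 and 26 counts in WT proximal libraries 1 to 4 and 2418, 40288, 11955 and 233 in HSCR proximal libraries. It had 3619, 152, 2186 and 216 counts in WT distal and 1122, 3747, 15666 and 210 in HSCR distal libraries. As CPM these were 139.7, 14.2, 0.617 and 1.12 in WT proximal, 60.4, 1473, 219.7 and 8.34 in HSCR proximal, 121, 4.38, 43.2 and 5.07 in WT distal and 32.1, 139.7, 423 and 4.84 in HSCR distal libraries. Every HSCR proximal library held more Epcam than WT proximal libraries 3 and 4, but WT proximal library 1 exceeded 2 of the HSCR proximal libraries. The log2 fold change of HSCR over WT was 3.48 ± 1.89 (SE, adjusted p = 0.762) in the proximal colon and 1.75 ± 1.35 (SE, adjusted p = 0.9998) in the distal (edgeR quasi-likelihood test). Distal over proximal colon it was 0.21 ± 1.55 (SE, adjusted p = 0.99) in WT and -1.53 ± 1.52 (SE, adjusted p = 0.9998) in HSCR mice.

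A gene was called changed when its adjusted p was under 0.05 and its log2 fold change beyond 1 in either direction. No member was called in any of the 5 comparisons. In the proximal colon 33 members passed the filter on low counts, and all 33 had higher estimates in HSCR libraries, with a median of 3.16 on the log2 scale, where the median was 0.04 for the 16664 genes tested. There 0% of all genes were called, and 6 members had an unadjusted p under 0.05 where 6.62% of all genes did. The 6 were Reg3g, Cldn4, Krt19, Cldn3, Krt18 and Muc2. In the distal colon all 31 tested members were likewise higher in HSCR libraries, with a median of 1.13, 1 unadjusted p under 0.05 (2.64% of all genes) and 0% of all genes called (median of all genes 0.04). Olfm4 passed the filter in no fit of 8 libraries, and Reg3g and Slc9a3 failed it in the distal genotype comparison and between segments in WT. The members' levels moved together from library to library, as their slopes on Epcam show, so their common direction is not a set of independent observations.

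Distal over proximal colon in WT, 22 of 31 tested members were higher and 9 lower, with a median of 0.51, 0 unadjusted p under 0.05 (5.23% of all genes) and 0.0181% of all genes called (median of all genes 0.03). In HSCR mice 30 of 33 were lower in the distal colon, with a median of -1.53, 3 unadjusted p under 0.05 (1.49%) and 0% called (median of all genes -0.04). The difference between the distal and the proximal genotype effect had a median of -1.77 over 34 members, 0 unadjusted p under 0.05 (1.44%) and 0% of genes called (median of all genes -0.05). These comparisons share groups and are not independent. Without the libraries labelled HSCR 1 no member was called either, with medians of 3.54 in the proximal colon, 1.57 in the distal colon and -1.53 between segments in HSCR mice. With HSCR distal library 4 left out as well, the distal median was 2.05 and that between segments in HSCR mice -0.96, again with 0 members called.

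DESeq2, the edgeR likelihood ratio test and limma-voom also called 0 members in each comparison. Of all genes they called 181, 69 and 4 of 16664 in the proximal colon and 22, 7 and 0 of 17059 in the distal. Between segments they called 47, 32 and 4 of 16566 in WT and 5, 0 and 0 of 17086 in HSCR mice. For the difference of effects they called 6, 3 and 0 of 18619. A fit in the manner of the study, with 4 RUVr factors (unwanted variation estimated from residuals) and a likelihood ratio test, called 31 of 33 members in the proximal colon, where it called 16% of all genes, with Car4 and Lgr5 the members it did not call. In the distal colon it called 2 members, Cldn3 and Tff3, and 6.54% of all genes. Its proximal log2 fold changes reached 26.63 for Guca2a and 31.65 for Slc9a3, which had 48, 0, 0 and 0 counts in the WT proximal libraries. The proximal result thus depends on the model, and WT proximal library 1 alone moved it as well, since without that library the median of the members was 7.12.

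Relative to Epcam, some members kept a near constant ratio over libraries and others did not. The ratio is the log2 of a gene's count over the Epcam count, each with 0.5 added, and it was formed in the 14 libraries with at least 50 Epcam counts, which leaves out WT proximal libraries 3 and 4 with 26 each. WT proximal colon is therefore represented by 2 libraries, and in the second of them 13 members had 0 counts beside 385 for Epcam, with 15741 genes detected, the fewest of all libraries. Over the 14 libraries 12 of the 33 other members had an SD of the log2 ratio under 1 and 16 an SD over 2. Without WT proximal library 2 these counts were 18 and 8.

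Cldn7, which encodes a claudin of the lateral membrane, had the steadiest ratio. Its log2 ratio was -1.74 and -1.06 in WT proximal libraries 1 and 2, -1.25, -0.94, -1.12 and -0.87 in HSCR proximal, -1.29, -0.74, -1.17 and -0.49 in WT distal and -1.51, -1.38, -1.16 and -0.87 in HSCR distal libraries (SD 0.32, n = 14). Over the same libraries Epcam itself ranged over 4.38 to 1473 CPM. Cldn3, another claudin, had an SD of 0.45 over the 13 libraries other than WT proximal library 2, and Elf3, a transcription factor of epithelia, one of 0.56. At the other end stood Reg3g with 4.89, Slc9a3 with 3.58, Olfm4 with 3.36 and Car4 with 3.11. The Cldn3 ratio was not steady in the libraries set aside. It was -3.61 in WT proximal library 2 and 1.39 and 1.53 in WT proximal libraries 3 and 4, with 26 Epcam counts each.

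**Figure D2:**
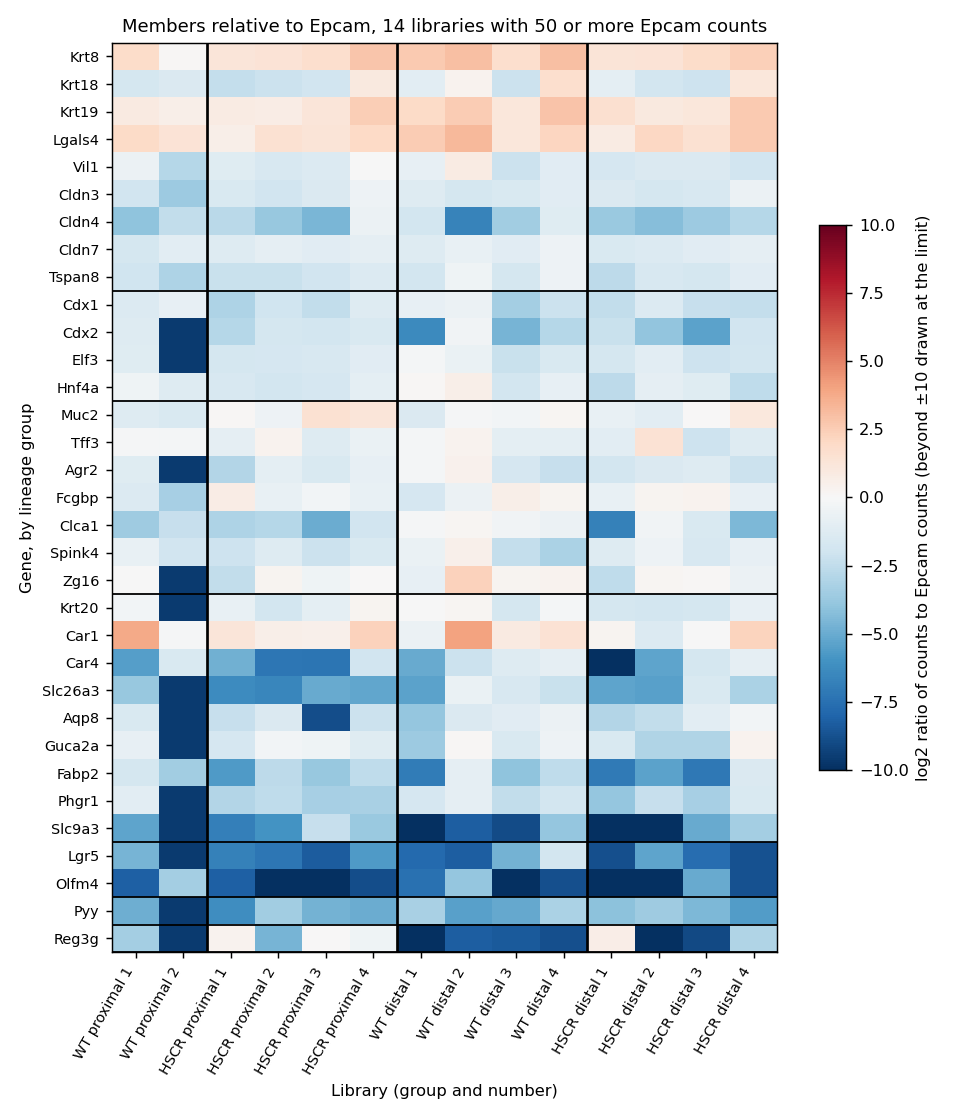
The log2 ratio of 33 members to Epcam (color, beyond 10 in either direction drawn at the limit) in the 14 libraries with at least 50 Epcam counts, with genes in rows by lineage group and libraries in columns by genotype and segment. The Cldn7 row hardly varies in color, nor does that of Cldn3 outside WT proximal library 2. Reg3g, Olfm4, Slc9a3 and Car4 vary the most, and WT proximal library 2 shows the dark cells of members at 0 counts.

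No ratio test gave a p under 0.05. Over 132 tests (33 members in 4 comparisons) the lowest p was 0.0857 and the lowest adjusted p 0.80 (exact two-sided permutation tests). Comparisons with the WT proximal group set 2 libraries against 4 and cannot give a p under 0.133, so these tests could not pass. The adjustment over the 132 tests includes them, so an adjusted p of 0.80 does not show that the ratios were equal. In a second approach, the log2 Epcam level entered the edgeR model of all 16 libraries as a covariate. At equal Epcam level the median log2 fold change of the members was 0.05 for HSCR over WT in the proximal colon and -0.61 in the distal colon, where without the covariate it was 3.16 and 1.13. Distal over proximal colon it was 0.72 in WT and -0.18 in HSCR mice, and -0.93 for the difference of the genotype effects. In this model too, 0 of 33 members were called in each comparison, as were 0% of all 18618 genes. Without the libraries labelled HSCR 1 the medians at equal Epcam level were 0.38 in the proximal colon and -0.39 in the distal, with 0 members called. By the ratios, the median genotype difference was 0.67 in the proximal colon, with 23 of 33 members higher, and -0.53 in the distal. With the Epcam count as library size, the medians were 0.43 and -0.67. The size of the proximal median thus depends on the method.

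Unadjusted p values under 0.05 at equal Epcam level were given to 2 members in the proximal genotype comparison, Muc2 and Fcgbp (4.39% of all genes), and 2 in the distal one, Reg3g and Hnf4a (4.14%). Between segments they were given to 7 in WT, namely Fcgbp, Pyy, Clca1, Reg3g, Cldn7, Zg16 and Muc2 (6.05%), and 1 in HSCR mice, Slc26a3 (2.28%). For the difference of effects there were 4, Muc2, Fcgbp, Cldn7 and Vil1 (1.63%). Without the libraries labelled HSCR 1 these counts were 4, 0, 7, 4 and 2, where 687, 1145, 1336, 1453 and 503 of all 19128 genes had such a p. The slope of a member's log2 level on that of Epcam, over all 16 libraries and within groups, had a median of 0.96 over the 33 members, against -0.01 over all genes tested. It lay between 0.8 and 1.2 for 22 of the 33, including all 7 goblet genes and all 4 transcription factor genes. The lowest slopes were those of Krt18 (0.45), Car4 (0.46), Olfm4 (0.53), Reg3g (0.59), Lgr5 (0.61) and Krt19 (0.65), and the highest was that of Pyy (1.24).

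**Figure D3:**
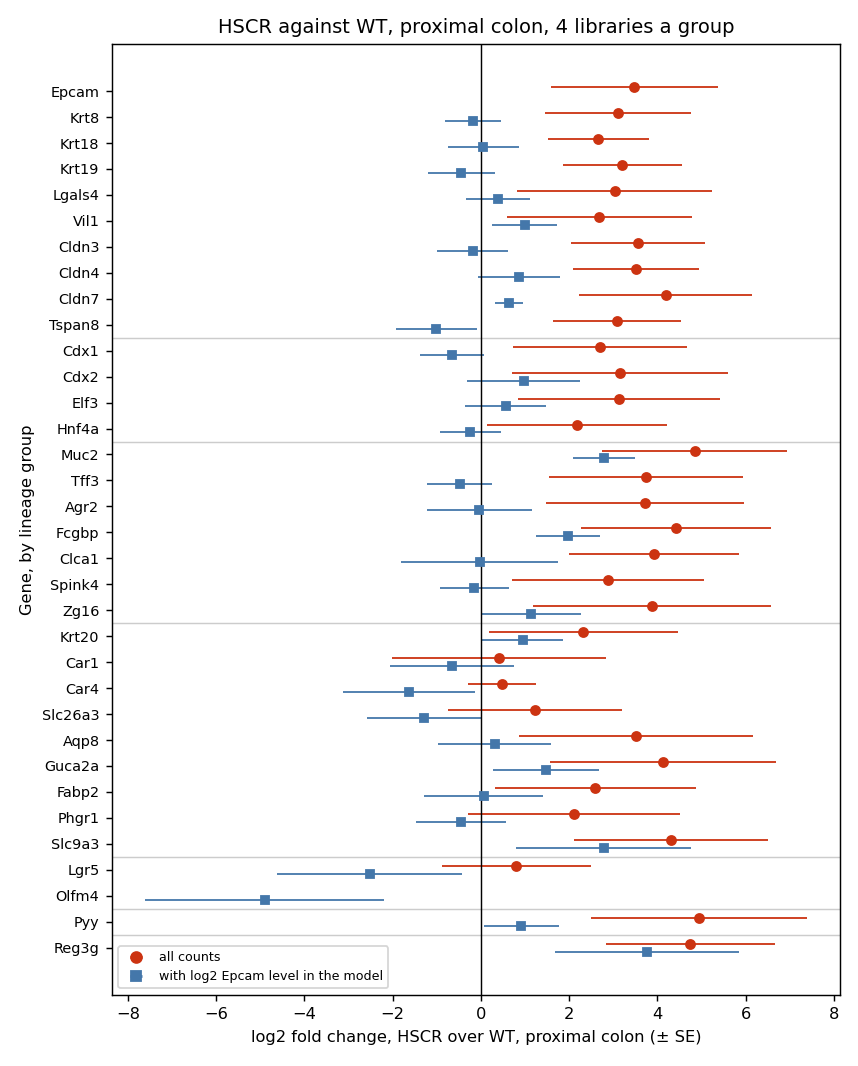
Log2 fold change of HSCR over WT in the proximal colon (4 libraries a group, bars are SE) for the members by lineage group, from all counts (circles) and with the log2 Epcam level in the model (squares). The circles lie to the right of 0 around 3.16, the squares scatter on both sides of 0 around 0.05, with Reg3g, Muc2, Slc9a3 and Fcgbp furthest to the right, and Epcam has no square because it is the covariate.

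Among the structural genes, the simple-epithelium keratins Krt8, Krt18 and Krt19 had higher ratios to Epcam in most libraries with little epithelium, WT proximal library 2 being an exception. Krt19 was at 255, 20.8, 25.2 and 32.8 CPM in WT proximal libraries 1 to 4, so that libraries 3 and 4 had more Krt19 than library 2 with less Epcam. Its log2 ratio to Epcam was 0.84, 0.75, 1.22 and 2.45 in HSCR proximal, 1.91, 2.55, 1.14 and 2.84 in WT distal and 1.61, 0.94, 1.11 and 2.64 in HSCR distal libraries, and 5.32 and 4.84 in WT proximal libraries 3 and 4. The ratio was highest where Epcam was lowest. Krt18 was alike, with ratios of -2.40, -2.16, -1.94 and 0.97 in HSCR proximal and -1.04, 0.39, -2.14 and 1.65 in WT distal libraries and 3.24 and 3.39 in WT proximal libraries 3 and 4.

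The 3 keratins made up 16.4, 24.6, 80.5 and 80.5% of all member counts in WT proximal libraries 1 to 4, against 22.2% to 46.7% in the libraries of the other 3 groups. They are also made by mesothelium, the serosal cover of the gut. Its markers (Msln, Upk3b, Lrrn4, Upk1b, Wt1 and Krt7, summed) were at 79.9, 47.1, 163 and 217 CPM in WT proximal, 119, 293, 245 and 148 in HSCR proximal, 64.6, 29.5, 121 and 180.2 in WT distal and 271, 33.7, 209 and 177 in HSCR distal libraries. Krt7, which other epithelia also make, was 292 CPM of that sum in HSCR proximal library 2 and 59.0 in WT distal library 1, where Msln was at 0.658 and 0.401 and Upk3b at 0.804 and 0.902. Msln, the defining gene of mesothelium, was at 5.5, 14.4, 56.8 and 67.8 CPM in WT proximal, 39.3, 0.658, 110.4 and 58.7 in HSCR proximal, 0.401, 1.38, 29.4 and 63.0 in WT distal and 94.2, 0, 62.4 and 74.1 in HSCR distal libraries, and over all 16 it was at 0 in 1 library, Upk1b in 1, Lrrn4 in 2 and Upk3b, Wt1 and Krt7 in none. The share of keratin counts that came from mesothelium was not tested. Without the 3 keratins the members took 0.251, 0.014, 0.00113 and 0.00104% of counts in the WT proximal libraries, and the log2 difference of HSCR over WT in the proximal colon was 4.58 (exact permutation p = 0.114).

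**Figure D4:**
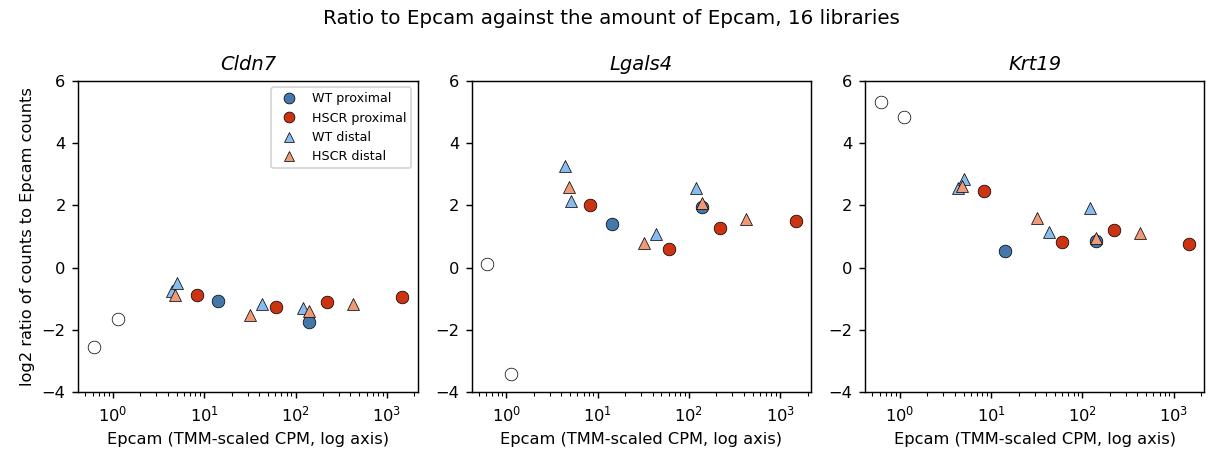
The log2 ratio to Epcam of Cldn7, Lgals4 and Krt19 against the Epcam level (TMM-scaled CPM, log axis) in all 16 libraries, with circles for proximal and triangles for distal colon and open circles for WT proximal libraries 3 and 4, which have 26 Epcam counts each. The Cldn7 ratio stays between -1.74 and -0.49 in the 14 filled points, while the Krt19 ratio is higher in libraries with less Epcam and reaches 5.32.

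Lgals4, a galectin of the enterocyte and colonocyte apical membrane, held a ratio of 0.59 to 3.27 over the 14 libraries, and Tspan8, a tetraspanin, one of -3.05 to -0.43. In WT proximal libraries 3 and 4, which are not among the 14, the ratios were 0.10 and -3.41 for Lgals4 and 2.01 and 2.05 for Tspan8. By fold change of HSCR over WT in the proximal colon, Cldn7 and Cldn3 had the largest estimates of the structural genes, at 4.19 ± 1.97 (SE, adjusted p = 0.748) and 3.56 ± 1.52 (SE, adjusted p = 0.747). Vil1, the actin bundler of the brush border, and Krt18 had the smallest, at 2.68 ± 2.10 (SE, adjusted p = 0.817) and 2.66 ± 1.14 (SE, adjusted p = 0.747). Vil1 ratios ranged from -2.82 to 0.82. Cldn4 was less steady, with ratios of -1.80, -6.67, -3.50 and -1.21 in WT distal libraries, the second of which had 1 count. Krt8 ratios in the distal colon were 2.61, 2.97, 1.64 and 3.02 in WT and 1.28, 1.37, 1.82 and 2.38 in HSCR libraries, which overlapped. The difference of HSCR minus WT was -0.85 (exact two-sided permutation p = 0.0857, adjusted p = 0.80, 4 against 4), and -0.70 without the library labelled HSCR distal 1.

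Compared between genes per transcript length (FPKM), in the epithelium-rich HSCR proximal library 2 the highest of the 34 was Tff3 at 3756, followed by Guca2a at 2023, Krt8 at 1960.0, Lgals4 at 1792 and Car1 at 1729. Epcam was at 671 FPKM there and Lgr5 at 0.944. As the median over 16 libraries, Krt8 and Krt19 led at 53.4 and 51.0 FPKM, ahead of Car1.

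Of the transcription factors, Elf3 kept the steadiest ratio to Epcam over the 13 libraries other than WT proximal library 2, where it had 0 counts (with that library its SD was 2.24, above those of Cdx1 and Hnf4a at 0.86 and 0.91), and over the same 13 Cdx2 had its lowest ratios in distal libraries. Cdx2 (ENSMUSG00000029646, chromosome 5, 147237615 to 147244080 of mm39), the homeobox factor of intestinal identity, had a log2 ratio to Epcam of -1.31 in WT proximal library 1 and -2.83, -1.76, -1.85 and -1.54 in HSCR proximal libraries. In WT distal libraries it was -6.35, -0.34, -4.61 and -2.88 and in HSCR distal libraries -2.22, -3.93, -5.38 and -1.95. WT proximal library 2 had 0 Cdx2 counts. Apart from that library, values under -3 occurred only in 4 distal libraries, those with Hoxd13 at 146, 112, 115 and 209.7 CPM, while HSCR distal libraries 1 and 4, with Hoxd13 at 0.629 and 14.1 CPM, had -2.22 and -1.95. High Hoxd13 did not always go with a low Cdx2 ratio. WT distal library 2 (157 CPM of Hoxd13, 152 Epcam counts) had -0.34, WT distal library 4 (201 CPM) -2.88 and the library labelled HSCR proximal 1 (125 CPM) -2.83. As a level, Cdx2 was -4.16 ± 1.46 (SE, adjusted p = 0.9998) in distal over proximal HSCR colon (log2, unadjusted p = 0.0192), and per Epcam the difference was -1.38 (exact permutation p = 0.171), or -2.04 without the libraries labelled HSCR 1 (exact permutation p = 0.10, the smallest that 3 against 3 can give). Its level in the distal colon was 1.88 ± 0.74 (SE, adjusted p = 0.9998) in HSCR over WT (unadjusted p = 0.0318).

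HSCR over WT in the proximal colon, the estimates were 3.16 ± 2.45 (SE, adjusted p = 0.816) for Cdx2, 3.13 ± 2.28 (SE, adjusted p = 0.806) for Elf3, 2.70 ± 1.98 (SE, adjusted p = 0.806) for Cdx1 and 2.18 ± 2.04 (SE, adjusted p = 0.838) for Hnf4a. Cdx1 ratios ranged from -3.37 to -0.60 and those of Hnf4a, a nuclear receptor of the enterocyte lineage, from -2.60 to 0.59. Distally, Hnf4a at equal Epcam level was -1.71 ± 0.69 (SE, adjusted p = 0.999) in HSCR over WT, with an unadjusted p of 0.026. It was -1.46 without the libraries labelled HSCR 1. Its ratios were 0.12, 0.59, -1.83 and -0.81 in WT distal and -2.60, -0.90, -1.22 and -2.53 in HSCR distal libraries, and the groups overlapped.

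**Figure D5:**
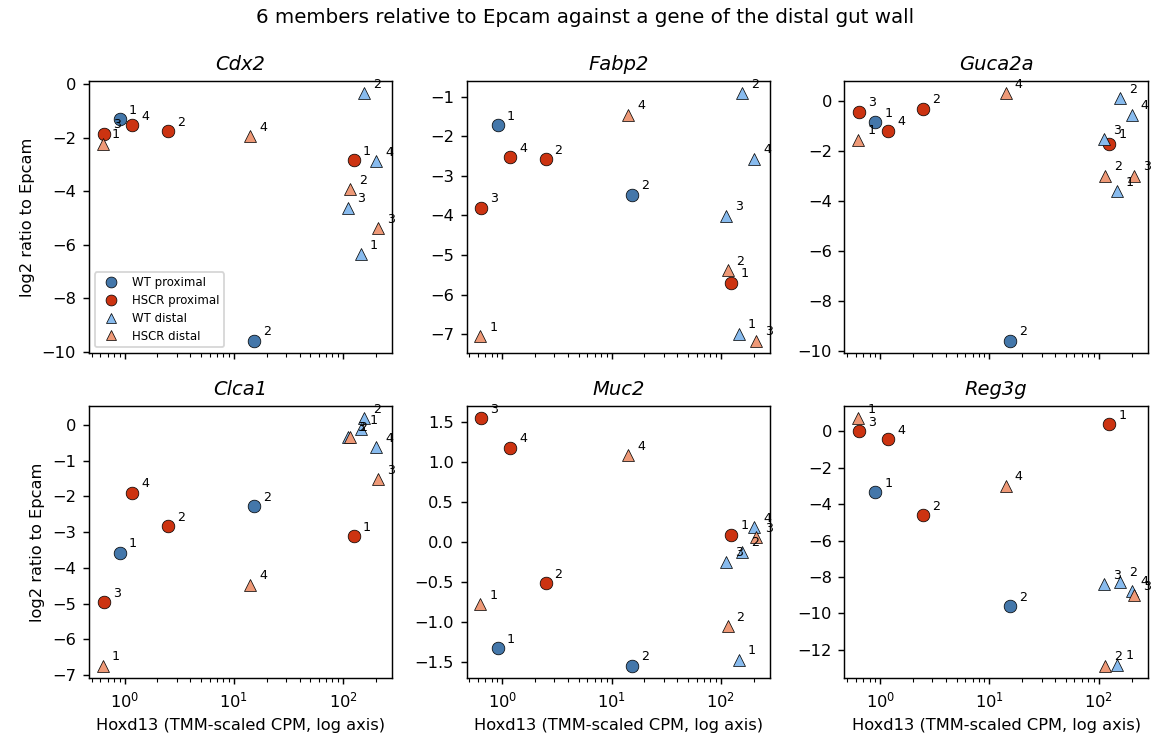
The log2 ratio to Epcam of 6 members against Hoxd13 (TMM-scaled CPM, log axis) in 14 libraries, numbered, with circles for proximal and triangles for distal labels and color for the group. Apart from WT proximal library 2, which had 0 Cdx2 counts, the 4 lowest Cdx2 ratios, and in all 14 the 5 highest Clca1 ratios, are those of distal libraries on the right, where the library labelled HSCR proximal 1 also lies, with a Reg3g ratio of 0.39 and a Clca1 ratio of -3.11, while the library labelled HSCR distal 1 lies on the left. On the right too, Cdx2 ratios are -0.34 and -2.88 in WT distal libraries 2 and 4 and -2.83 in the library labelled HSCR proximal 1.

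Of the goblet cell genes, Muc2 and Fcgbp were higher per Epcam in every HSCR proximal library than in both WT proximal libraries. Such a full separation of 2 from 4 libraries has an exact permutation p of 0.133 for any gene, so the test could not be passed. In this comparison 3 of the 33 members did not overlap, the third being Cldn3 with a difference of 1.44. Random splits would separate a gene fully at that same rate of 0.133, and the share of all genes without overlap was not computed. The count is therefore not a result about the members. Muc2 (ENSMUSG00000025515, chromosome 7, 141276583 to 141308430 of mm39) encodes the gel-forming mucin of the colon. It was at 55.8, 4.86, 0.142 and 0 CPM in WT proximal, 64.5, 1032, 639 and 18.8 in HSCR proximal, 43.8, 4.04, 36.5 and 5.75 in WT distal and 18.8, 67.5, 441 and 10.3 in HSCR distal libraries. Relative to Epcam its log2 ratio was -1.32 and -1.54 in the 2 WT proximal libraries and 0.09, -0.51, 1.54 and 1.17 in the 4 HSCR proximal libraries. All 4 HSCR values lay above both WT values, a difference of 2.00 (exact two-sided permutation p = 0.133, the smallest that 2 against 4 libraries can give; adjusted p = 0.80), and 2.16 without the library labelled HSCR proximal 1. As a level, Muc2 was 4.84 ± 2.10 (SE, adjusted p = 0.747) in HSCR over WT (unadjusted p = 0.0467). At equal Epcam level the model gave 2.79 ± 0.70 (SE, adjusted p = 0.962) with an unadjusted p of 0.00126. Distal ratios of Muc2 were -1.46, -0.12, -0.24 and 0.18 in WT and -0.77, -1.05, 0.06 and 1.08 in HSCR libraries and overlapped.

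Fcgbp, a mucin-binding protein of the goblet cell, showed the same order in the proximal colon, with ratios of -1.40 and -3.32 in WT and 0.77, -0.73, -0.29 and -0.73 in HSCR libraries, and 1.97 ± 0.72 (SE, adjusted p = 0.962) at equal Epcam level. With no minimum of Epcam counts, which adds WT proximal libraries 3 and 4, Muc2 and Fcgbp, 2 of 33 members, separated the genotypes in the proximal colon (exact permutation p = 0.0286 each, 4 against 4), although WT proximal library 4 had 0 counts of either. The share of all genes that did so was not computed. As a level, Fcgbp was 4.42 ± 2.15 (SE, adjusted p = 0.752) in HSCR over WT, while the smallest goblet estimates were those of Spink4 at 2.88 ± 2.18 (SE, adjusted p = 0.809) and Agr2 at 3.72 ± 2.24 (SE, adjusted p = 0.774). For Tff3, Agr2, Spink4 and Zg16 the ratios of the genotypes overlapped. Tff3, a trefoil peptide, had ratios of -0.08 and -0.16 in WT and -0.91, 0.33, -1.31 and -0.69 in HSCR proximal libraries, and Spink4 had ratios of -0.73 and -1.90 in WT and -2.09, -1.31, -2.16 and -1.55 in HSCR proximal libraries. Agr2, a disulfide isomerase, and Zg16, a lectin of the mucus, were at 0 counts in WT proximal library 2, and against WT proximal library 1 alone (-1.21 and -0.07) the HSCR proximal values were -2.93, -1.01, -1.56 and -0.83 for Agr2 and -2.46, 0.30, -0.43 and 0.04 for Zg16.

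Clca1 (ENSMUSG00000028255, chromosome 3, 144709578 to 144738537 of mm39), a secreted protease of goblet mucus, had its highest ratios to Epcam in distal libraries. It was 1 of 4 among the 33 members without overlap between segments in WT, the others being Krt19, Cldn3 and Tspan8. Random splits of 2 against 4 libraries separate a gene fully at a rate of 0.133. The share of all genes without overlap was not computed, so the count is not a result about the members. The Clca1 ratio was -3.58 and -2.28 in WT proximal and -0.13, 0.18, -0.33 and -0.62 in WT distal libraries, a difference of 2.70 (exact permutation p = 0.133, the smallest that 2 against 4 libraries can give, adjusted p = 0.80). At equal Epcam level it was 2.73 ± 1.07 (SE, adjusted p = 0.819) in distal over proximal WT colon, with an unadjusted p of 0.0224. In HSCR proximal libraries it was -3.11, -2.83, -4.97 and -1.90 and in HSCR distal libraries -6.74, -0.33, -1.53 and -4.47. HSCR distal library 2 was within the WT distal range and library 3 below it, and libraries 1 and 4, those with low Hoxd13, were lower than any WT library with at least 50 Epcam counts. The difference of HSCR minus WT in the distal colon was -3.04 (exact permutation p = 0.0857, adjusted p = 0.80), -1.88 without the library labelled HSCR distal 1 and -0.70 with library 4 left out too.

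As a class, the 7 goblet genes had a median log2 fold change of 3.88 for HSCR over WT in the proximal colon and 1.89 in the distal colon. At equal Epcam level these were -0.02 and -0.37, and distal over proximal in WT 1.52 with all 7 higher. That model includes WT proximal libraries 3 and 4, with 26 Epcam counts each, which the ratios leave out. By ratio to Epcam, Tff3 (-0.34) and Spink4 (-0.10) were lower in the distal WT colon and the other goblet members higher. The log2 ratio of summed goblet to summed absorptive counts was -2.13, 0.42, -0.96 and 0.03 in WT proximal, 0.15, 0.55, 0.82 and -0.42 in HSCR proximal, 1.07, -0.83, 0.45 and -0.28 in WT distal and 0.28, 2.56, 0.81 and -0.94 in HSCR distal libraries. The 4 groups overlapped, and the highest value was that of HSCR distal library 2.

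Among the 10 other goblet genes looked at (Retnlb, Spdef, Atoh1, Sytl2, Tpsg1, Reg4, Creb3l1, Ern2, Galnt12 and Bcas1), 9 were tested in the proximal colon and 9 were higher in HSCR libraries, with a median of 2.55, Spdef highest at 3.09 and Sytl2 lowest at 0.75. In the distal colon all 10 were higher, with a median of 1.09. None was called, and they share the amount of mucosa with the members.

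Promoter windows are shown for the absorptive members that share a motif and for Reg3g, the member that varied most. The windows run from 250 bases before to 50 after the gene start, are RefSeq sequences of build GRCm38.p6, and were found for 26 of the 34 members (29 windows). The letters CAAAGNNCA, a core of the site that Hnf4a binds, were searched on both strands and occurred in 3 member windows, those of Fabp2, Phgr1 and Slc26a3, which is 10.3% against 6.36% of all 32851 windows. The letters CATAAA, a form of the Cdx site that also resembles a TATA box, occurred in 4 (13.8% against 11.9%), those of Agr2, Epcam, Olfm4 and Tspan8. Capitals mark the CAAAGNNCA match, on the plus strand of the gene in Slc26a3 and on the minus strand in Fabp2 and Phgr1. It starts 137 bases before the gene start in Fabp2 and Phgr1 and 136 in Slc26a3. The Reg3g window holds neither motif.
Fabp2 (chr3:122894822-122895121, + strand): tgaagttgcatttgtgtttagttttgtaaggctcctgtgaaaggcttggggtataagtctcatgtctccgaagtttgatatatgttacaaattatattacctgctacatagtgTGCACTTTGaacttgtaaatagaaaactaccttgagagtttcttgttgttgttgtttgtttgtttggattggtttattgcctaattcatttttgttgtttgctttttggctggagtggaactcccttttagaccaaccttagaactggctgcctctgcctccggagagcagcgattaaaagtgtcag
Phgr1 (chr2:118772524-118772823, + strand): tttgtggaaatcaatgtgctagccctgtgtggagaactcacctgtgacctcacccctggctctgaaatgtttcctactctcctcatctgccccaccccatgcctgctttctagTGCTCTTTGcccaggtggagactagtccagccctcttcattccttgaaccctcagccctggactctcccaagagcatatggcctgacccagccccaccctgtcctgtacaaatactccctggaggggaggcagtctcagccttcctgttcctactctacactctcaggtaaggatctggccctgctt
Slc26a3 (chr12:31437969-31438268, + strand): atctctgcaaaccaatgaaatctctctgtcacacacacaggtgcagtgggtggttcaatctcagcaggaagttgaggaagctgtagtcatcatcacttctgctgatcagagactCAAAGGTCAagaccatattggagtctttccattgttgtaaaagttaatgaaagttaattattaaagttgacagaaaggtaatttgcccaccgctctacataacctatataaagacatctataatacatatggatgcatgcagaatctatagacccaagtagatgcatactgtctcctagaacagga
Reg3g (chr6:78468825-78469124, - strand): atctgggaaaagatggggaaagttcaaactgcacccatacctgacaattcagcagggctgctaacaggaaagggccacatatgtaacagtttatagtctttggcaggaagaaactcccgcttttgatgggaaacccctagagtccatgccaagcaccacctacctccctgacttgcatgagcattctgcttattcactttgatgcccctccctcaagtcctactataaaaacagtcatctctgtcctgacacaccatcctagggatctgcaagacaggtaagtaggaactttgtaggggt

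Absorptive genes varied widely per Epcam, within groups as much as between them. Car1, a cytosolic carbonic anhydrase, was at 1948, 12.9, 0 and 0 CPM in WT proximal, 137, 2157, 312 and 42.3 in HSCR proximal, 80.9, 70.7, 79.0 and 13.7 in WT distal and 38.7, 54.2, 417 and 23.3 in HSCR distal libraries. WT proximal library 1 held nearly as much Car1 as HSCR proximal library 2 at 139.7 against 1473 CPM of Epcam. Per Epcam its log2 ratio was 3.80 and -0.13 in WT proximal, 1.18, 0.55, 0.51 and 2.34 in HSCR proximal, -0.58, 4.01, 0.87 and 1.44 in WT distal and 0.27, -1.36, -0.02 and 2.26 in HSCR distal libraries. The groups overlapped, and HSCR over WT in the proximal colon Car1 was 0.41 ± 2.42 (SE, adjusted p = 0.984), the smallest estimate of all tested members.

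Guca2a (guanylin, which drives chloride and water secretion) and Fabp2 (a cytosolic fatty acid carrier) were, as levels, the absorptive members with an unadjusted p under 0.05 between segments in HSCR mice. Guca2a per Epcam was -1.70, -0.29, -0.43 and -1.17 in HSCR proximal and -1.55, -2.99, -2.98 and 0.31 in HSCR distal libraries, -0.85 in WT proximal library 1 (0 counts in library 2) and -3.60, 0.13, -1.52 and -0.54 in WT distal libraries. Fabp2 per Epcam was -5.70, -2.58, -3.81 and -2.53 in HSCR proximal and -7.05, -5.39, -7.16 and -1.46 in HSCR distal libraries, -1.72 and -3.48 in WT proximal and -6.99, -0.92, -4.01 and -2.57 in WT distal libraries. The lowest Fabp2 values were those of HSCR distal libraries 3 and 1 and WT distal library 1, and the highest those of WT distal library 2 and HSCR distal library 4, so the distal libraries spanned the whole range. As levels, distal over proximal in HSCR colon, Fabp2 was -4.95 ± 1.75 (SE, adjusted p = 0.9998) and Guca2a -3.94 ± 1.57 (SE, adjusted p = 0.9998), with unadjusted p of 0.0203 and 0.0336. Per Epcam the differences were -1.61 for Fabp2 (exact permutation p = 0.314) and -0.90 for Guca2a (exact permutation p = 0.371). Leaving out 1 library, Fabp2 ran over -2.88 (without HSCR distal library 4) to -0.98 (without HSCR distal library 3) and Guca2a over -1.61 (without HSCR distal library 4) to -0.50 (without HSCR distal library 2). Without the libraries labelled HSCR 1 these differences were -1.70 and -1.25. HSCR over WT in the proximal colon, Guca2a was 4.13 ± 2.56 (SE, adjusted p = 0.777).

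Slc26a3, the chloride-bicarbonate exchanger of the surface, had its highest ratios in distal libraries. Its log2 ratio to Epcam was -6.31, -6.51, -5.04 and -5.17 in HSCR proximal and -5.30, -5.40, -1.51 and -3.16 in HSCR distal libraries, and -3.79 in WT proximal library 1 and -5.37, -0.69, -1.62 and -2.22 in WT distal libraries. At equal Epcam level it was 2.73 ± 1.16 (SE, adjusted p = 1.0) in distal over proximal HSCR colon, with an unadjusted p of 0.0323. It was 2.89 without the libraries labelled HSCR 1, and leaving out 1 library it ran over 0.75 (without HSCR distal library 3) to 3.11 (without HSCR proximal library 3), so its size rests on HSCR distal library 3. Phgr1, which like Fabp2 and Slc26a3 holds the HNF4 letters in its promoter, ranged in its ratio from -3.89 to -0.89 over 13 libraries.

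Car4, a membrane-bound carbonic anhydrase, was at 2.17, 9.84, 1.4 and 2.15 CPM in HSCR proximal libraries and was 0.47 ± 0.77 (SE, adjusted p = 0.909) in HSCR over WT there. Over all libraries it was between 0 and 128 CPM, with the highest level in HSCR distal library 3. In WT proximal libraries 3 and 4, with Epcam at 0.617 and 1.12 CPM, Car4 was still at 1.57 and 1.3 CPM, above Epcam, and its source in those libraries was not tested.

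Aqp8, the water channel of the surface colonocyte, was at 12.3, 554, 0.459 and 1.9 CPM in HSCR proximal libraries, so that library 3 had 25 counts beside 11955 for Epcam, a ratio of -8.87 where the other 3 were between -2.30 and -1.41. Slc9a3, the apical sodium-hydrogen exchanger, was at 0.525, 23.2, 43.9 and 0.608 CPM in the same libraries, highest in library 3. It had 48, 0, 0 and 0 counts in WT proximal libraries, and HSCR over WT in the proximal colon it was 4.32 ± 2.2 (SE, adjusted p = 0.753). In WT distal libraries Slc9a3 was at 0, 0, 0.0791 and 0.329 and in HSCR distal at 0, 0, 12.9 and 0.438 CPM. Krt20, the keratin of mature surface cells, and Phgr1 kept a steadier ratio, with SDs of 0.82 and 0.94 over 13 libraries. In the distal colon the Krt20 ratio was -0.05, 0.19, -1.78 and -0.21 in WT and -1.79, -1.85, -1.73 and -0.82 in HSCR libraries, which overlapped, with a difference of -1.08 (exact permutation p = 0.0857, adjusted p = 0.80).

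Of the 17 other absorptive genes looked at, 14 were tested in the proximal colon and all were higher in HSCR libraries, with a median log2 fold change of 3.09, from 1.45 for Slc26a2 to 4.84 for Saa1. Distal over proximal in HSCR colon 12 of 15 were lower, from -2.49 for Mep1a, with Atp12a, a potassium pump, highest at 1.70. None was called.

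Stem cell genes were scarce. Lgr5, the receptor that marks crypt base stem cells, was at 5.42, 0, 0.664 and 0.173 CPM in WT proximal, 0.55, 9.69, 0.662 and 0.143 in HSCR proximal, 0.534, 0, 1.66 and 1.39 in WT distal and 0.0572, 3.69, 2.1 and 0 in HSCR distal libraries. WT proximal library 3, with 26 Epcam counts, had 28 Lgr5 counts, and their source was not tested. HSCR over WT in the proximal colon Lgr5 was 0.80 ± 1.68 (SE, adjusted p = 0.934). Olfm4, a stem cell marker of the small intestine that mouse colon largely lacks, had 6, 36, 14 and 0 counts in WT proximal, 8, 0, 2 and 0 in HSCR proximal, 20, 10, 0 and 0 in WT distal and 0, 0, 469 and 0 in HSCR distal libraries. Only HSCR distal library 3 was above 36 counts, and no fold change is given. A count of 0 allows up to 3 counts, which is 0.0551 to 0.226 CPM in these libraries for counting error only.

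Of the genes of stem and dividing cells beside the members, 8 (Smoc2, Ascl2, Axin2, Rgmb, Mki67, Top2a, Sox9 and Ephb2) were tested, with a median of 0.66 in the proximal genotype comparison, from -0.57 for Rgmb to 2.65 for Sox9. In the distal one it was 0.52, with Mki67 highest at 2.50. Dividing cells of muscle or stroma also carry several of these transcripts.

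Pyy, peptide YY of the colonic endocrine L cell, was at 4.67, 0, 0 and 0 CPM in WT proximal, 0.80, 129, 8.2 and 0.251 in HSCR proximal, 12.9, 0.0865, 1.23 and 0.563 in WT distal and 1.83, 11.9, 18.8 and 0.0922 in HSCR distal libraries. Its level rose with that of Epcam, with a slope of 1.24, the highest of the members. The log2 ratio of Pyy to Epcam was -4.89 in WT proximal library 1, -6.22, -3.51, -4.74 and -4.96 in HSCR proximal, -3.23, -5.45, -5.13 and -3.14 in WT distal and -4.12, -3.56, -4.49 and -5.55 in HSCR distal libraries. WT proximal library 2 had 0 Pyy counts beside 385 for Epcam. At equal Epcam level Pyy was 2.44 ± 0.90 (SE, adjusted p = 0.819, edgeR) in distal over proximal WT colon, with an unadjusted p of 0.0165. The log2 fold change of HSCR over WT in the proximal colon was 4.95 ± 2.45 (SE, adjusted p = 0.752), with 62, 0, 0 and 0 counts in the WT proximal libraries. Of 10 other endocrine genes, 7 were tested there, with 5 higher and 2 lower, from -0.78 for Cck to 3.95 for Sct, and several of these, such as Cck and Chgb, are also made by neurons. Insl5, which L cells of the distal colon make, was at 1.51, 0, 0 and 0 CPM in WT proximal, 0.40, 20.1, 0.165 and 0.251 in HSCR proximal, 7.35, 0, 0.751 and 0.329 in WT distal and 0, 6.63, 9.12 and 0 in HSCR distal libraries, highest in HSCR proximal library 2. Tuft cell genes could be tested for 2 of 6, Trpm5 at 1.04 and Dclk1 at -0.03 in the proximal genotype comparison.

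Reg3g (ENSMUSG00000030017, chromosome 6, 78443252 to 78445855 of mm39), a secreted lectin that kills Gram-positive bacteria, had the widest spread of all members, and its highest levels were in HSCR libraries. It was at 13.6, 0, 0.451 and 0 CPM in WT proximal and 79.0, 60.1, 219.9 and 6.12 in HSCR proximal libraries, and at 0, 0, 0.119 and 0 in WT distal and 52.0, 0, 0.809 and 0.599 in HSCR distal libraries. Levels of 50 CPM and more occurred in HSCR libraries only, in HSCR proximal libraries 1, 2 and 3 and the library labelled HSCR distal 1. Per Epcam, the log2 ratio was 0.39, -4.62, 0.00 and -0.45 in HSCR proximal and 0.70, -12.87, -9.00 and -2.99 in HSCR distal libraries, so that in 4 HSCR libraries Reg3g counts were near or above those of Epcam. It was -3.36 in WT proximal library 1 and -8.39 in WT distal library 3, where it had 6 counts, while WT proximal library 3 had 19 counts beside 26 for Epcam. It had 0 counts in WT proximal libraries 2 and 4, WT distal libraries 1, 2 and 4 and HSCR distal library 2. With 3 counts, the most that a count of 0 allows, the ratio in WT distal library 1 would be -10.01 and in HSCR distal library 2 -10.06, while in WT proximal library 2 it would be -6.78.

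The log2 fold change of Reg3g for HSCR over WT in the proximal colon was 4.75 ± 1.92 (SE, adjusted p = 0.747), with an unadjusted p of 0.0355. Per Epcam the difference was 5.31 (exact permutation p = 0.267, 2 against 4 libraries), a size that depends on the 0 counts of WT proximal library 2, and 4.79 without the library labelled HSCR proximal 1. In the distal colon Reg3g did not pass the filter in the 8-library fit, and at equal Epcam level over 16 libraries it was 8.33 ± 2.46 (SE, adjusted p = 0.999) in HSCR over WT with an unadjusted p of 0.00411. It was 3.56 without the libraries labelled HSCR 1, and 0.90 without HSCR distal library 4 as well, so that distal value rests on these libraries. Reg3g had 1820, 0, 30 and 26 counts in HSCR distal and 0, 0, 6 and 0 in WT distal libraries.

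Reg3b, its neighbor in the Reg family and one of 8 antimicrobial and related genes looked at beside the members, had a like distribution, save for HSCR distal library 2. It was at 30.1, 0, 0.19 and 0 CPM in WT proximal, 374, 449, 2107 and 26.8 in HSCR proximal, 0, 0.462, 1.8 and 0.047 in WT distal and 119, 6.26, 0.324 and 1.5 in HSCR distal libraries. Its log2 fold change of HSCR over WT was 6.63 in the proximal colon and 5.72 in the distal, the highest of the 8 in each. The list as a whole had medians of 1.39 and 0.82, with Lcn2 lowest in the proximal colon at -0.30 and Nos2 in the distal colon at -1.22, and 0 of the 8 were called. Reg3g and Reg3b are paralogs, so reads common to both are an uncertainty of either count.

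Small intestine genes were used to see whether other gut had been included. Of 8 listed, 7 were found and 5 were tested in the proximal colon, from -0.53 for Lyz1 to 4.49 for Alpi. Plasma cell and lymphocyte genes of the mucosa (Jchain, Igha, Igkc, Cd79a, Mzb1 and Itgae, summed) were at 0.657 to 33.1 CPM, and genes of the stroma under the epithelium (Adamdec1, Foxl1, F3, Bmp5, Wnt5a and Sox6, summed) at 68.7 to 895 CPM, the latter highest in HSCR proximal library 2, as was the share of the members. Adamdec1 was the highest of the stroma genes in HSCR over WT in both segments, at 2.69 and 1.57.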

How the data were processed

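RNA from microdissected LMMP was sequenced in bulk, in 16 libraries of 2 genotypes and 2 colon segments. Per the labels and the study's methods, the authors used HISAT2 2.2.1 to place reads on mm39 and featureCounts 2.0.6 with the GENCODE gene model to count them. The deposited table holds raw read counts, FPKM values and the exonic gene length, by which the authors scaled the FPKM. Counts were used for all tests, and FPKM, which is relative to gene length, was used to compare levels between genes. The table's group means and the authors' own comparisons (fold changes and p-values, also in a separate table of the proximal comparison) were not used. The labels name both a stranded and an unstranded kit, so overlapping genes on opposite strands cannot be told apart. Every column of values per library was mapped by its name, and no 2 libraries were identical.

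Counts were fitted by edgeR 4.0.16 in R 4.3.3 (TMM, filterByExpr, quasi-likelihood test, Benjamini-Hochberg adjustment over all genes tested), on the 8 libraries compared, or on all 16 for the difference of genotype effects. A second model added the log2 CPM of Epcam (0.5 added) to the 4 groups over 16 libraries. Ratios were log2((count + 0.5)/(Epcam count + 0.5)) in libraries with at least 50 Epcam counts, compared by exact two-sided permutation tests (scipy 1.17.1). CPM in the text is scaled by TMM factors over all 16 libraries. The fits were checked on simulated counts, and their power at the spread of these libraries is not given here. That spread was large, with a biological coefficient of variation (relative spread between libraries of a group) of 0.70 to 0.74. Depth ranged from 21384372 to 45831881 counts, and limits for counts of 0 (3 counts) cover counting error only.

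The members and gene lists were chosen with earlier results of these data known. Values are given in full for Epcam, for members called, and for the 2 largest and 2 smallest proximal genotype fold changes in each lineage group. Members with an unadjusted p under 0.05 are named too, the other lists by counts, medians and their extreme genes, and further genes (Hoxd13, Insl5, Msln and Krt5) were named after their values were seen. Alternatives were DESeq2 1.42.0, limma-voom (limma 3.58.1), the edgeR likelihood ratio test, RUVr with 4 factors, upper quartile scaling, counts without mitochondrial genes, no filter, all 16 libraries in 1 fit, a term for library series, a replicate block, a denominator of 5 epithelial genes, other priors and Epcam minimums, and leaving out libraries. Leaving out the libraries labelled HSCR 1 from the ratios and shares, and HSCR distal library 4 from any result, was chosen after seeing the data.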

Additional observations from a re-analysis of the deposited data

Results flagged for a closer look

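Among 103 groups of 4 libraries (the share of counts on the members, and each member's ratio to Epcam, by genotype and segment), 6 held a library set apart by a gap of more than Dixon's critical value, and chance alone gives about 1 in 20. WT proximal library 1 had 0.30% of its counts on the members, against 0.0185% or less in the other 3 libraries of its group. The log2 ratio of Krt18 to Epcam in HSCR proximal library 4 was 0.97, against -1.94 or less in the other 3. That of Aqp8 in HSCR proximal library 3 was -8.87, against -2.30 or more. That of Reg3g was -4.62 in HSCR proximal library 2, below the other 3, and -12.82 in WT distal library 1, where Reg3g had 0 counts and the value is set by the 0.5 added. That of Krt20 in HSCR distal library 4 was -0.82, above the other 3, which lay between -1.85 and -1.73.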

How the results depend on the processing

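Of 1199 repeats of the results under other settings, 1153 kept their direction and call or moved by less than the spread of libraries. RUVr with 4 factors called 31 members in the proximal colon and 2 in the distal, where the other tests called 0, and limma-voom moved the median log2 fold change of the members to 6.49 in the proximal colon and to 4.87 between segments in WT, and turned it between segments in HSCR mice to 0.22, with 20 members higher and 13 lower. The cause was not tested. With no minimum of Epcam counts, 3 ratio tests had an exact p under 0.05 in place of 0, Muc2 (3.23) and Fcgbp in the proximal colon and Clca1 between segments in WT (3.24). The share of the members between segments in HSCR mice turned to 0.66 without the 2 libraries labelled HSCR 1 and HSCR distal library 4, and the Epcam fold change there to 0.44 under limma-voom.

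Leaving out 1 library at a time, the median of the members ran over 0.89 (without HSCR proximal library 2) to 7.12 (without WT proximal library 1) in the proximal colon, 0.05 (without HSCR distal library 3) to 2.79 (without WT distal library 1) in the distal colon, -0.99 (without WT distal library 1) to 4.13 (without WT proximal library 1) between segments in WT, -2.69 (without HSCR distal library 3) to 0.65 (without HSCR proximal library 2) in HSCR mice and -5.31 (without WT proximal library 1) to 0.51 (without HSCR proximal library 2) for the difference of effects. Members called at equal Epcam level between segments in WT ran from 0 to 1, and elsewhere 0 were called. The 1 was Phgr1, without WT proximal library 1 (adjusted p = 0.034 by edgeR), where 8 of 19422 genes were called. The share between genotypes ran over 2.54 (without HSCR proximal library 2) to 5.005 (without WT proximal library 1) in the proximal and 0.06 (without HSCR distal library 3) to 1.92 (without HSCR distal library 4) in the distal colon, and between segments over 1.01 (without WT distal library 1) to 3.05 (without WT proximal library 1) in WT and -2.10 (without HSCR proximal library 4) to 0.19 (without HSCR proximal library 2) in HSCR mice. Epcam ran over -2.83 (without HSCR distal library 3) to 0.59 (without HSCR proximal library 2) between segments in HSCR mice, -1.09 (without WT distal library 1) to 3.09 (without WT proximal library 1) in WT and -4.53 (without WT proximal library 1) to 0.48 (without HSCR proximal library 2) for the difference of effects. In the proximal genotype comparison Car1 ran over -1.56 (without HSCR proximal library 2) to 7.22 (without WT proximal library 1), Car4 over -0.52 (without HSCR proximal library 2) to 0.94 (without WT proximal library 2) and Lgr5 over -1.75 (without HSCR proximal library 2) to 3.17 (without WT proximal library 1), so their direction rests on HSCR proximal library 2, and Car1 was also just below 0 without WT proximal library 2, 3 or 4.

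With the replicate number as a replicate block, 0 members were called in all 5 comparisons, with medians of 5.63 and 1.01 for HSCR over WT in the proximal and distal colon, 2.83 and -1.15 between segments in WT and HSCR mice, and -2.38 for the difference of effects. The numbers were not taken to pair libraries, since the correlations of same-numbered libraries ran from -0.24 to 0.60 and in no comparison were more than 4 of 8 libraries closest to their own number. Depth limits genes at 0 to 0.0551 to 0.226 CPM, and 26 Epcam counts in WT proximal libraries 3 and 4 leave their ratios imprecise.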

Other observations

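Genes of other epithelia stood out in single libraries. Krt5, a keratin of stratified squamous epithelium such as that of the anus, was at 103 CPM in HSCR distal library 3 and 15.6 in HSCR distal library 2, and at 3.8 or less in the other 14. Pancreatic acinar genes (Cpa1, Cela3b, Pnlip, Ctrb1, Cel and Prss2, summed) were at 731 CPM in WT distal library 2, 25.1 in HSCR distal library 3 and 1.58 or less in the other 14. HSCR distal library 3 was also the library with the highest Car4 and Olfm4 levels. Saa1, an acute-phase gene that colonocytes make, ranged from 0 to 945 CPM, highest in HSCR proximal library 2, at 420.0 and 404 in HSCR distal libraries 2 and 3 and at 0.715 and 0.692 in HSCR distal libraries 1 and 4.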
